A study of Mus musculus with 22 samples.

Results

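Macrophage RNA from young renal capsules was compared with macrophage RNA from the kidney. The comparison held the 4 libraries titled as young RCAM and the 4 titled as kidney macrophages, 8 of the 22 mouse libraries of the study, chosen by title. Genes that separated these libraries were then looked up in 4 further libraries titled as macrophages of the renal capsule, which share the 4 kidney libraries as their reference. The renal capsule is the thin fibrous sheath around the kidney. Per the series text, capsules of mice were dissected and some were sorted by flow cytometry for macrophages before bulk RNA sequencing. The labels do not expand RCAM and list these libraries as capsule tissue rather than as a cell type. They give "None" as the treatment of all 3 groups, and no genotype, strain, sex or age beyond "young" for the RCAM libraries. No label ties the replicates to separate animals. The p-values therefore rest on the spread among libraries, which may be only technical.

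Tissue macrophages carry a shared program, including the growth factor receptor Csf1r, on top of which each tissue adds genes of its own. Macrophages that lie in connective tissue and along vessels are known for scavenger and lectin receptors such as Lyve1, Folr2, Timd4, Cd163 and Mrc1, which bind hyaluronan, folate, dying cells, haptoglobin-bound haemoglobin and mannose-rich sugars. Macrophages inside the kidney are known for Cx3cr1, the receptor of a chemokine held on cell surfaces, and for high MHC class II, which shows peptides to T cells.

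Total counts were 49.8 to 54.4 M (M is 1e6) in the young RCAM libraries, 39.3 to 53.4 M in the capsule macrophages and 31.8 to 49.9 M in the kidney macrophages. Of 52636 genes in the files, 16351 passed the expression filter and were tested. The first principal component held 63.7% of the variance and placed all 4 kidney libraries between 135.5 and 143.9 and all 8 capsule libraries between -84.5 and -53.7. The second held 7.4% and separated young RCAM from the capsule macrophages. Sample codes of the submitters form one run for the capsule and kidney macrophages and a separate run for the RCAM libraries, and the labels name no batch. Site and sequencing set therefore cannot be told apart in young RCAM against kidney macrophages taken alone, while the capsule macrophages stand in the same run as the kidney. In all 12 libraries B2m, Irf8, Myd88, Cox4i1 and Rpl13 were listed at 0, and 234 genes at 0 here had over 5 counts per 1e6 (CPM) in every one of the 6 capsule tissue libraries. A gene listed at 0 is therefore only that, and not called absent.

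Young RCAM libraries carried general macrophage genes at high levels, although their label reads as tissue. Csf1r, Adgre1 and Cd68 were higher than in the kidney macrophages, while Ctss and Cd14 were lower. Levels of a gene are in CPM of the library total after TMM scaling. Csf1r was at 9782, 7845, 8499 and 8961 CPM in the 4 young RCAM libraries and at 3801, 4394, 3770 and 3833 CPM in the 4 kidney libraries. The groups did not overlap, and the log2 fold change was 1.15 ± 0.08 (SE, n = 4 against 4). Adgre1, which encodes the macrophage surface protein F4/80, was at 2015 ± 213 CPM (SD, n = 4) against 1510 ± 54.8 CPM, a log2 fold change of 0.42 ± 0.07. Cd68, a lysosomal membrane protein of macrophages, was at 1432 ± 122 against 876 ± 130 CPM. Among 17 tested genes of a pan-macrophage list, 10 were higher in young RCAM and 4 were lower, where 27.1% of all genes tested were higher and 28.2% lower (edgeR's quasi-likelihood test, adjusted p under 0.05). The lower members included Ctss, a protease that trims the MHC class II chaperone, and Cd14, a co-receptor for bacterial lipopolysaccharide. Ctss was at 1897 ± 176 against 4122 ± 441 CPM and Cd14 at 800 ± 47.5 against 1699 ± 159 CPM. Summed over the list, young RCAM held 40690 to 43170 CPM of the unscaled total and kidney macrophages 33320 to 37270 CPM. Levels are those of bulk samples, in which fewer cells of a type and less RNA per cell cannot be told apart.

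**Figure D1:**
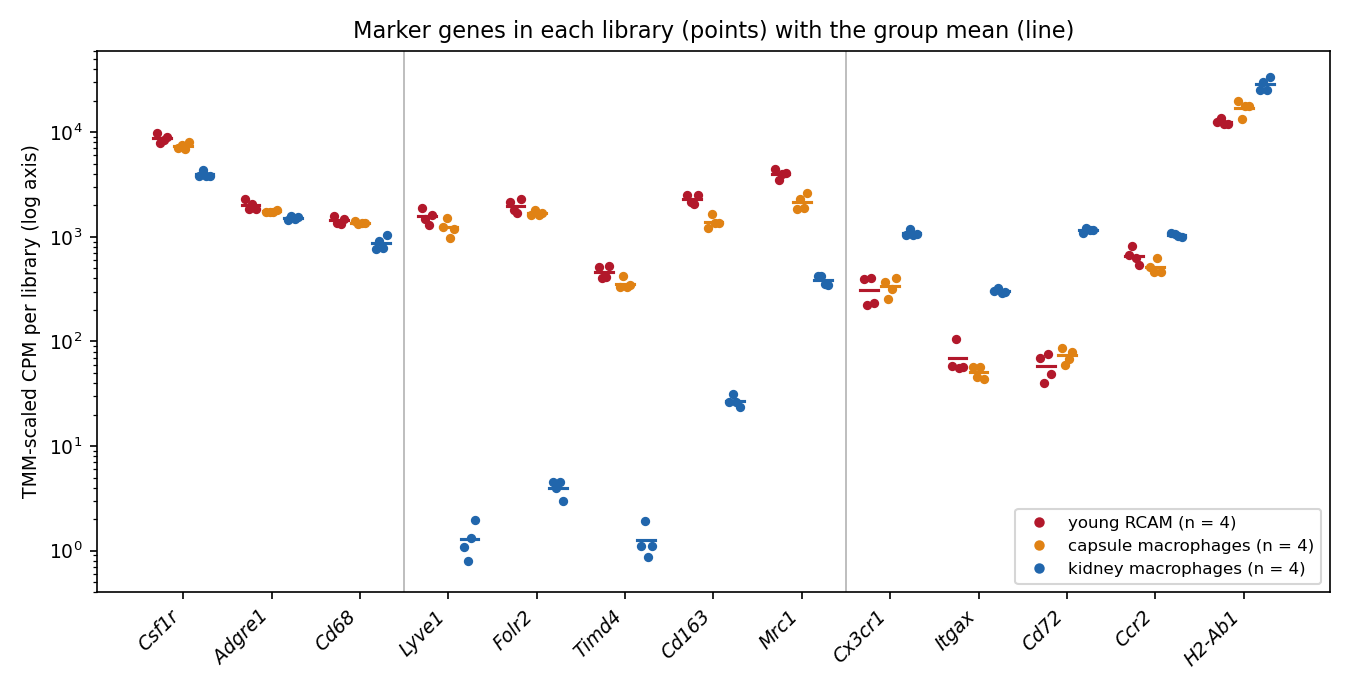
Level of 13 marker genes in every library on a log axis of TMM-scaled CPM, with points for the 4 libraries of each group and a line at the group mean. Csf1r, Adgre1 and Cd68 are high in all groups, Lyve1, Folr2 and Timd4 fall to between 0.798 and 4.53 CPM in the kidney libraries, and Cx3cr1, Itgax, Cd72, Ccr2 and H2-Ab1 are highest there.

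Site differences were counted with 3 conditions together. A gene was called a site gene if its adjusted p was under 0.05, its change was at least 2-fold and its 4 values on one side did not overlap the 4 on the other. By these conditions 1823 genes (11.1% of those tested) were higher in young RCAM and 2673 (16.3%) were lower. By the test alone 4435 were higher and 4615 lower, so 49% of the genes that passed were higher. With library totals alone in place of TMM factors that share was 34.1%, since this scaling moved the median log2 fold change of all genes from -0.051 to -0.284. Among the site genes the median log2 fold change was 2.13 for those higher and -2.22 for those lower. A change of 4-fold or more was seen in 978 of the higher and 1500 of the lower site genes.

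**Figure D2:**
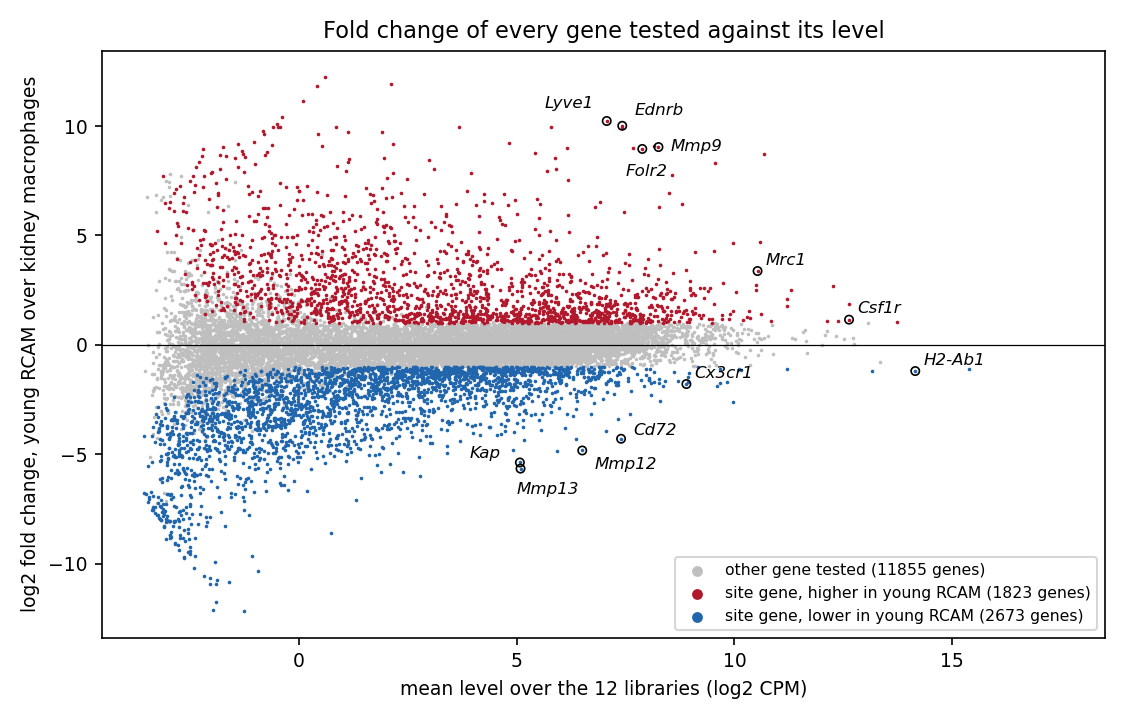
Log2 fold change of young RCAM over kidney macrophages against the mean level over the 12 libraries, 1 point per gene tested. The 1823 site genes higher in young RCAM are red and the 2673 lower are blue, and named genes are ringed: Lyve1, Ednrb, Folr2 and Mmp9 lie near 9 to 10 at moderate to high level, and Mmp13, Kap and Mmp12 near -5.

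Genes known from connective-tissue macrophages were higher in young RCAM almost without exception. Of 24 tested members of that list, 23 were site genes higher in young RCAM, against 11.1% of all genes. The list median log2 fold change was 6.36, against -0.051 for all genes. The remaining member, Fxyd2, a regulator of the sodium pump abundant in nephron epithelium, was lower. Since the list was chosen with results of these data known, its direction is a description. Summed, these genes held 48400 to 56070 CPM in young RCAM, and 39990 to 46100 CPM in the capsule macrophages against 3974 to 4690 CPM in the kidney.

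Lyve1, the hyaluronan receptor (chr7:110850607-110863239, minus strand, GRCm38), had the largest positive fold change among the well-measured protein-coding genes. It was at 1883, 1490, 1308 and 1615 CPM in young RCAM, and at 1.09, 0.798, 1.33 and 1.96 CPM in the kidney libraries. All 4 young RCAM libraries were far above all 4 kidney libraries, and the log2 fold change was 10.23 ± 0.27 (adjusted p = 9.25e-12, edgeR). Folr2, a folate receptor, was at 2153, 1806, 1679 and 2285 CPM against 4.5, 4.01, 4.53 and 3.01 CPM, which is 495-fold. Timd4, a receptor for phosphatidylserine on dying cells, was at 515, 400, 416 and 527 CPM against 1.11, 1.94, 0.862 and 1.1 CPM. For each of these receptors the 4 kidney values lay at a few CPM with no library standing near the capsule range. Cd163, the receptor of haptoglobin-bound haemoglobin, and Mrc1, the mannose receptor, were also higher, but were well above the floor in the kidney. Cd163 was at 2514, 2145, 2071 and 2529 CPM against 26.2, 31.4, 26.6 and 23.6 CPM. Mrc1 was at 4443, 3470, 3989 and 4047 CPM against 419, 420, 353 and 347 CPM, a log2 fold change of 3.37 ± 0.13.

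The other leading site genes included receptors, secreted proteins and enzymes. Ednrb (chr14:103814625-103844402, minus strand), a receptor for endothelins, was at 2309, 1776, 1612 and 2404 CPM against 1.98, 2.5, 2 and 1.4 CPM, a log2 fold change of 10.01 ± 0.27. Cd209f (chr8:4102787-4105835, minus strand), a C-type lectin of the DC-SIGN family, was at 1767 ± 245 against 1.84 ± 0.497 CPM. Its neighbour in the family Cd209g was at 325 ± 65.2 against 0.748 ± 0.302 CPM, and reads of 50 bases may be split among the near-identical members of this family. Cbr2, a carbonyl reductase, rose to 1658 ± 194 from 3.24 ± 0.544 CPM. Pla2g2d, a secreted phospholipase, rose by 9.96 ± 0.24 on the log2 scale and Chp2, a calcineurin B homologue, by 9.21 ± 0.34. Retnla, a secreted protein induced by interleukin-4, was among the most abundant of these transcripts, at 10910, 16240, 10190 and 13350 CPM against 26.6, 31.1, 25.1 and 37.9 CPM. Ccl24, an attractant of eosinophils, was at 596 ± 103 against 1.16 ± 0.308 CPM. In each case no kidney library reached the lowest young RCAM library.

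Genes for taking up dead cells were divided, with 10 of 15 tested higher and 5 lower, where 27.1% of all genes were higher and 28.2% lower. The receptor tyrosine kinase Mertk was at 206, 199, 207 and 227 CPM against 27.9, 27.3, 27.3 and 24.9 CPM, with no overlap. Its bridging ligands Gas6 and Pros1, which tie phosphatidylserine to the receptor, were also higher, by 4.31 ± 0.12 and 2.54 ± 0.09 on the log2 scale. Scavenger receptors as a list had 17 higher and 4 lower members of 23 tested, with a median of 1.55. On an alternative-activation list, which names genes induced by interleukin-4, 12 of 19 were higher and 3 lower. Clec10a, a galactose-binding lectin on that list, was at 788 ± 91.4 against 63 ± 16.1 CPM.

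Complement genes were mostly higher in young RCAM, 21 of 25 tested against 4 lower, with a median log2 fold change of 1.51. Over all genes 27.1% were higher and 28.2% lower. Cfp, which encodes properdin and stabilises the alternative pathway's convertase, was at 3137, 2931, 2567 and 3196 CPM against 103, 125, 107 and 133 CPM. C3, the central component, was at 365, 458, 374 and 292 CPM against 34.5, 37.6, 33.4 and 44.1 CPM. C4b (chr17:34728380-34743882, minus strand), of the classical pathway, was at 2774 ± 373 against 5.16 ± 3.8 CPM. Kidney replicate 2 was the highest of its group for C4b at 10.7 CPM, and without it the log2 fold change was 9.70 rather than 9.06. C4b has a near-identical neighbour, C4a, so its count is uncertain. C6, of the membrane attack complex, was at 133 ± 20.4 against 0.147 ± 0.15 CPM, with a log2 fold change of 9.97 that became 10.78 without kidney replicate 3 and rests on few kidney reads. C1ra, a protease of the C1 complex, rose by 4.69 ± 0.13 and Serping1, its inhibitor, by 4.72 ± 0.22.

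Fibroblasts also make several complement proteins, and fibroblast markers moved with this list. Of all genes tested 27.1% were higher in young RCAM and 28.2% lower. Of 25 tested fibroblast markers 23 were higher in young RCAM and 1 was lower, with a median of 5.40. Their sum was 4018 to 5506 CPM in young RCAM and 3082 to 3968 CPM in the capsule macrophages, against 889 to 1061 CPM in the kidney. Much of that sum was Fn1, fibronectin, which macrophages also make, at 3017 ± 786 against 13.9 ± 2.58 CPM. The defining markers were lower in level. Col1a1, type I collagen, was at 68.7, 50.2, 66.9 and 96.9 CPM against 0.349, 1.75, 0.723 and 0.616 CPM. Its log2 fold change was 6.37 ± 0.40, and 7.0 without kidney replicate 2. Dcn, decorin, was at 186 ± 36 against 2.15 ± 0.458 CPM and Sparc at 124 ± 13.7 against 7.11 ± 0.647 CPM. Ogn, on the same list, was listed at 0 in both groups. The part of fibroblast RNA in the complement result was not tested.

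Iron and haem genes, which macrophages use to recycle haemoglobin iron, were higher for 12 of 19 tested and lower for 2. Cp, the copper enzyme that oxidises exported iron, was at 381, 291, 307 and 303 CPM against 5.69, 5.97, 4.12 and 4.95 CPM. Slc40a1, which encodes the iron exporter ferroportin, was at 866, 668, 762 and 972 CPM against 52.7, 52.4, 54.7 and 55 CPM. Both genes separated the groups without overlap. Blvrb, a biliverdin reductase, rose by 2.55 ± 0.10. The lipid-handling list was divided, with 10 of 21 higher and 5 lower, where 27.1% of all genes were higher and 28.2% lower. With library totals alone 9 of its genes were higher and 7 lower. Abca1, the cholesterol exporter, was at 754, 655, 734 and 791 CPM against 94.7, 72.6, 86 and 59.2 CPM. Plin2, which coats lipid droplets, rose by 1.53 ± 0.07 and Cd36, a fatty acid and lipoprotein receptor, by 1.55 ± 0.10, while Ch25h, which makes 25-hydroxycholesterol, fell by 3.05 on the log2 scale (SE 0.22). Genes of cholesterol synthesis were lower for 13 of 21 tested and higher for 1. Of these, 6 were site genes. Cyp51 and Hmgcs1 did not reach 2-fold and were not among these site genes, with log2 fold changes of -0.90 ± 0.11 and -0.91 ± 0.13. Acat2 was lower by a log2 of -1.21 ± 0.17.

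Matrix proteases changed in opposite directions by member. Mmp9 (chr2:164940780-164955850, plus strand), a gelatinase, was at 3137, 2157, 2219 and 2855 CPM in young RCAM against 4.48, 5.15, 4.95 and 5.13 CPM. Mmp12 (chr9:7344381-7369499, plus strand), the macrophage elastase, was at 19, 68.5, 31.6 and 18.7 CPM against 965, 919, 1006 and 1019 CPM. Mmp13 (chr9:7272514-7283331, plus strand), a collagenase, was at 9.6, 11, 10.3 and 5.54 CPM against 419, 502, 420 and 497 CPM. Thus 1 gelatinase was 526-fold higher in young RCAM, and the collagenase was 50.5-fold lower, with no overlap in any of the 3 genes. The list of 21 tested proteases and inhibitors held 10 site genes higher and 5 lower, against 11.1% and 16.3% of all genes. Among those higher were Timp2, a tissue inhibitor of metalloproteinases, at 2900 ± 368 against 438 ± 11.8 CPM, and the cathepsins Ctsd, Ctsl and Ctsb. Ctsd rose by 3.02 ± 0.10, Ctsl by 2.53 ± 0.11 and Ctsb by 1.89 ± 0.09. Lysosomal genes were higher for 17 of 25 and lower for 4, where 27.1% of all genes were higher and 28.2% lower. Scaling by library totals alone gave 14 higher and 4 lower.

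Promoters are shown for the first gene from each end of the ranking that had one in the RefSeq table for GRCm38.p6. The windows run from 250 bases before to 50 bases after the RefSeq start of the gene, in the direction of transcription, at chr14:103843652-103843951 (minus strand) for Ednrb and chr9:7272264-7272563 (plus strand) for Mmp13. The RefSeq start of Ednrb lies inside the longer GENCODE span given above. Capitals mark a match to the AP-1 motif TGANTCA.

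Ednrb: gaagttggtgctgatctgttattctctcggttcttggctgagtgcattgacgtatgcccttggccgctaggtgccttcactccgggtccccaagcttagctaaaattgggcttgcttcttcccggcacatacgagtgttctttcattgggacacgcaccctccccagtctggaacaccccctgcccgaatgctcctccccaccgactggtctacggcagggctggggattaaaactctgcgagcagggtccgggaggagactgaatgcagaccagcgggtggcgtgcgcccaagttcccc

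Mmp13: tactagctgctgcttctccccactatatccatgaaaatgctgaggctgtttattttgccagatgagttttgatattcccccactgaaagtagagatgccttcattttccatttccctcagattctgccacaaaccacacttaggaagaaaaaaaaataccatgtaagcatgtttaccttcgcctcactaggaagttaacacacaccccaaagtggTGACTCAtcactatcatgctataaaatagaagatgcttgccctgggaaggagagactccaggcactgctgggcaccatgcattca

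Both strands were searched for 3 motifs in 11531 promoters of genes tested: TGANTCA (AP-1), GAGGAAG (PU.1) and TGCTGAC (part of a MAF site). The Ednrb window held none of the 3 and the Mmp13 window held the AP-1 match shown. TGANTCA was in 5.3% of the 11531 promoters, in 8.59% of 966 promoters of site genes higher in both capsule groups, and in 6.4% of 1407 promoters of those lower on both. GAGGAAG was in 13.7% of all, 15.4% of the higher and 14.1% of the lower. TGCTGAC was in 3.82%, 4.97% and 3.98%. A match is a stretch of letters and not a bound site.

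Genes of kidney macrophages were lower in young RCAM for 11 of 14 tested and higher for 2, with a median log2 fold change of -1.52. Of the 11, 9 were site genes. Over all genes 28.2% were lower and 27.1% higher, and 16.3% were lower site genes. Cx3cr1 was at 391, 225, 400 and 233 CPM in young RCAM against 1037, 1176, 1048 and 1062 CPM. Itgax, the CD11c integrin chain, was at 58.2, 106, 56.3 and 57.4 CPM against 306, 327, 293 and 298 CPM. Both were detected in every capsule library, at levels below every kidney library. Cd72 (chr4:43446462-43454628, minus strand), a C-type lectin-like co-receptor, was at 69.9, 40.3, 76.7 and 48.5 CPM against 1094, 1202, 1165 and 1152 CPM, which is 19.6-fold lower. Tmem119, known as a microglial marker, fell by 3.58 on the log2 scale (SE 0.24). Fcrls, an Fc receptor-like gene that was on this list, went the other way, at 2126, 1983, 1775 and 1849 CPM in young RCAM against 17.7, 14.9, 14.8 and 15 CPM. Ccr2, the chemokine receptor of classical monocytes, was at 660 ± 116 against 1043 ± 35.1 CPM, a log2 fold change of -0.66 ± 0.12 that did not reach 2-fold.

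MHC class II genes were lower in young RCAM for 10 of 16 tested and higher for 4. H2-Ab1, the beta chain of I-A, was at 12570, 13550, 11890 and 11950 CPM against 25360, 30340, 25560 and 33330 CPM. Cd74, the invariant chain, was at 30590 ± 2320 against 65960 ± 6178 CPM. H2-Ob, which restrains peptide loading, fell by 2.17 on the log2 scale (SE 0.14). The summed list stood at 54600 to 62950 CPM in young RCAM and at 133000 to 160300 CPM in kidney macrophages. The ranges did not overlap. MHC class I genes held no site gene among 17 tested. With 5 higher and 2 lower, their shares were near or below those of all genes (27.1% and 28.2%), and with library totals alone 3 were higher and 6 lower.

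Inflammatory cytokine and NF-kB genes were lower for 12 of 23 tested and higher for 6. Over all genes 28.2% were lower and 27.1% higher. Scaling by library totals alone gave 14 lower and 5 higher on this list. Il1b, which encodes interleukin-1 beta, was at 18.9, 22, 31 and 25.4 CPM against 426, 472, 507 and 526 CPM, which is 19.8-fold lower. Nlrp3, the inflammasome sensor, fell by 1.70 on the log2 scale (SE 0.15) and Nfkbiz, an inducible NF-kB regulator, by 1.35 (SE 0.11). Ptgs1, the constitutive cyclooxygenase, rose by 1.24 ± 0.10. On the chemokine list 10 of 21 were higher, all of them site genes, and 4 were lower. Of all genes tested 11.1% were site genes higher in young RCAM. Ccl8, a monocyte attractant, was at 420, 510, 528 and 528 CPM against 2.06, 2.46, 2.23 and 3.83 CPM. Cxcl12, the ligand of Cxcr4, rose by 3.68 ± 0.10 and Pf4, a heparin-binding chemokine, by 4.37 ± 0.09. Pf4 is also a platelet gene. The platelet list summed to 724 to 817 CPM of the unscaled total in young RCAM and 43 to 55.5 CPM in the kidney. Pf4 alone was at 806 ± 47.5 and 39 ± 4.31 CPM after TMM scaling, so it is not on the same scale as the sums.

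Growth factors were divided, with 10 of 23 higher and 8 lower, and with library totals alone 7 higher and 11 lower. Over all genes 27.1% were higher and 28.2% lower. Igf1, insulin-like growth factor 1, was at 380, 334, 365 and 408 CPM against 23.6, 15.6, 25.3 and 17.7 CPM. The platelet-derived growth factors went opposite ways. Pdgfc was at 144 ± 18.4 against 2.26 ± 0.834 CPM and Pdgfb at 13.1 ± 1.76 against 92.3 ± 9.01 CPM. Grn, progranulin, was at 4845 ± 400 against 858 ± 88 CPM. Tgfbr1, a receptor of transforming growth factor beta, was at 153, 95.6, 136 and 98.4 CPM against 1212, 1152, 1062 and 852 CPM, 8.85-fold lower. Of 18 tested retinoic acid genes, 11 were higher and 3 lower. Aldh1a2, which makes retinoic acid, was at 244, 307, 164 and 148 CPM against 3.42, 3.71, 3.59 and 4.56 CPM, and Dhrs3, which reduces retinaldehyde, was at 650 ± 40.2 against 214 ± 8.3 CPM. Of the transcription factors, Maf rose by 1.58 ± 0.09 and Rxra, a partner of the retinoic acid receptors, by 1.74 ± 0.12. Runx3 fell by 3.12 on the log2 scale (SE 0.18) and Nr4a1, a nuclear receptor of patrolling monocytes, by 3.15 (SE 0.22). Cell cycle genes were higher for 17 of 30 and lower for 1, with Aurkb at 46.4 ± 6.97 against 17 ± 2.9 CPM and Rrm1 at 111 ± 21 against 60.2 ± 3.45 CPM. With library totals alone 10 of the 30 were higher.

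**Figure D3:**
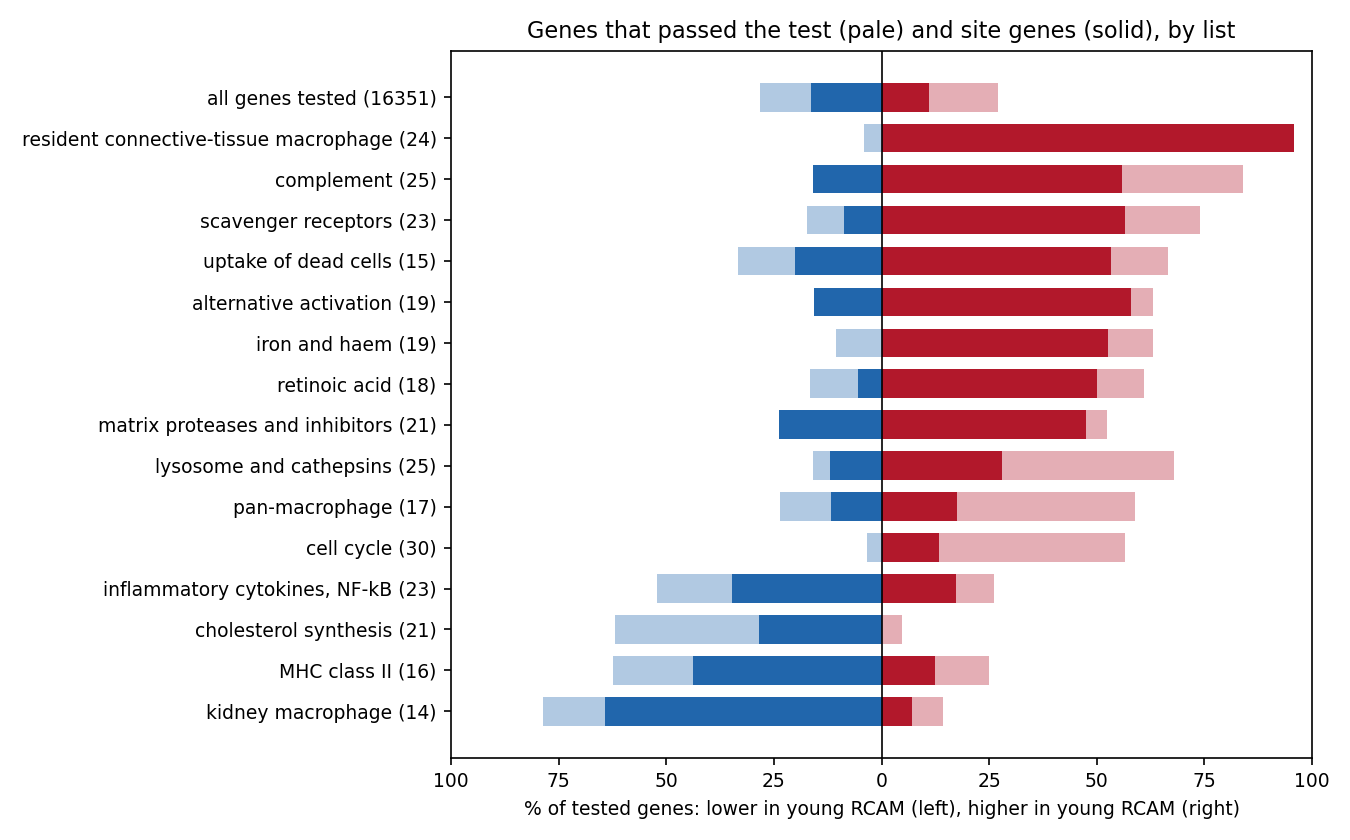
Share of each list's tested genes that passed the test in young RCAM against kidney macrophages (pale) and that were site genes (solid), lower to the left and higher to the right, with the number tested in brackets. The top bar gives all 16351 genes tested, and the connective-tissue macrophage list stands out with 23 of 24 genes to the right.

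Nephron genes took up much of the lower end of the ranking. Among the named site genes with the largest negative change, Kap, Akr1c21, Miox, Cltrn, Pdzk1 and Car2 are known from kidney tubule cells. Kap, the kidney androgen-regulated protein, was at 8.69, 15.6, 16.6 and 8.69 CPM in young RCAM against 644, 296, 759 and 360 CPM. Miox, which breaks down inositol, was at -4.82 ± 0.69, and at -5.45 without young RCAM replicate 2, the highest of its group. Akr1c21 was lower by a log2 of -4.92 ± 0.70, Cltrn by -4.61 ± 0.63, Pdzk1 by -4.48 ± 0.45 and Car2 by -4.47 ± 0.47. Kidney replicates 1 and 3 were above replicates 2 and 4 for Kap and Cltrn, and in the summed markers of both nephron lists below. The proximal tubule sum was 10170 and 10550 CPM in replicates 1 and 3, against 5977 and 6209 CPM in replicates 2 and 4. Summed markers of cytotoxic lymphocytes went the other way, at 63 and 66 CPM against 116.9 and 140.3 CPM.

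The whole lists of tubule markers behaved alike. Of 29 tested proximal tubule markers 25 were lower in young RCAM and 2 higher. All 19 tested markers of the loop and distal nephron were lower. Over all genes 28.2% were lower and 27.1% higher. Proximal tubule markers summed to 735 to 1215 CPM in young RCAM and 693 to 1244 CPM in the capsule macrophages, against 5977 to 10550 CPM in the kidney. The capsule libraries were not free of them. Slc34a1, a sodium-phosphate cotransporter, was at 32, 94, 49.9 and 29.4 CPM in young RCAM against 484, 360, 511 and 365 CPM. Umod, uromodulin of the thick ascending limb, was at 0.102, 2.31, 0 and 7.62 CPM against 74.6, 45.7, 73.8 and 35.8 CPM, with a log2 fold change of -4.52 ± 1.19 that became -6.18 without young RCAM replicate 4. Every capsule library was below every kidney library in the proximal tubule sum, and the part of tubule RNA in the count of lower site genes was not tested.

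Markers of further cell types went in both directions. Pecam1, an endothelial junction protein, was at 5.75 ± 1.22 against 17.4 ± 1.99 CPM. The endothelial list had 8 of 21 lower and 4 higher, where 28.2% of all genes were lower and 27.1% higher. Adipoq, the adipocyte hormone adiponectin, was at 3.67, 1.28, 4.58 and 1.09 CPM in young RCAM and was listed at 0 in all 4 kidney libraries. White adipocyte markers summed to 296 to 419 CPM against 197 to 205 CPM. Eosinophil markers summed to 131 to 200 CPM in young RCAM and 149 to 621 CPM in the capsule macrophages, against 3.13 to 7.57 CPM in the kidney. Of 14 tested markers of cytotoxic lymphocytes 9 were lower and none higher, with sums of 22.1 to 58.6 against 63 to 140 CPM. Xist was listed at 0 in all 8 libraries, and Ddx3y, from the Y chromosome, was at 62.7, 51.4, 84.2 and 61.5 CPM against 101, 98.4, 98.9 and 81.7 CPM.

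**Figure D4:**
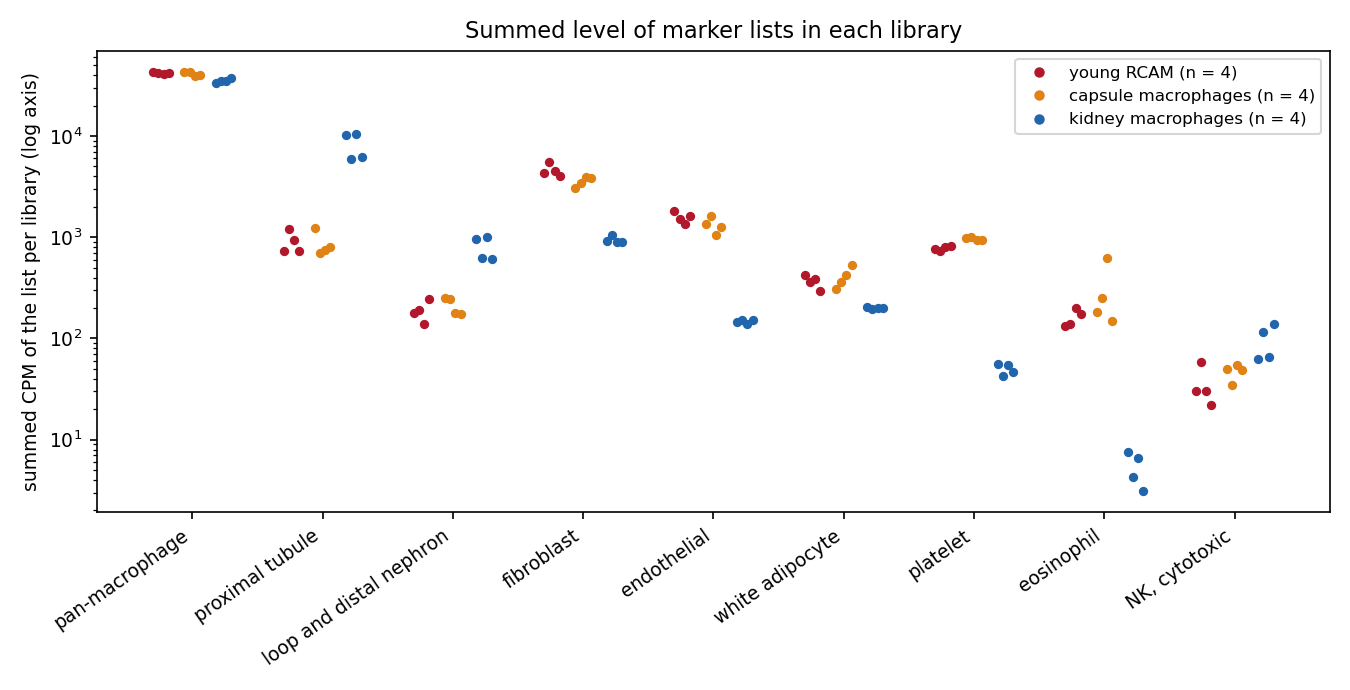
Summed CPM (unscaled library total) of 9 marker lists in every library, on a log axis, with 1 point per library. Tubule lists are highest in the 4 kidney libraries, fibroblast, endothelial, platelet and eosinophil lists are highest in the 8 capsule libraries, and the endothelial sum of the capsule libraries is mostly Lyve1 and the platelet sum mostly Pf4.

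The site genes were then looked up in the capsule macrophage libraries. Of 1823 site genes higher in young RCAM, 1398 (76.7%) were also site genes of capsule macrophages against kidney macrophages in the same direction, which is 80.7% of the 1732 higher site genes there. Of 2673 lower, 1956 (73.2%) were, which is 82.7% of 2364. Across all genes tested 10.6% and 14.5% were site genes of that comparison. Both comparisons subtract the same 4 kidney libraries, so these shares are raised by anything particular to those libraries. At any size of change 26.4% of all genes tested were higher and 27.8% lower in capsule macrophages. Of the 1823, 1716 were called in the same direction and none in the opposite, and 107 were not called. Of the 2673, 2221 were called in the same direction, 8 in the opposite and 444 not. Among changes of 4-fold or more, 864 of 978 higher and 1235 of 1500 lower site genes were also site genes in capsule macrophages.

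Young RCAM and capsule macrophages were also compared with each other, a contrast that subtracts no kidney library, although those libraries enter the filter, the scaling and the estimate of spread. It tests whether a gene's 2 differences from the kidney are unequal. In that comparison 1469 genes (8.98%) were higher in young RCAM and 1109 (6.78%) lower, and 123 (0.752%) and 199 (1.22%) met all 3 conditions. Without capsule macrophage replicate 2 the count of 123 became 191. In a fit of these 2 groups alone 1216 genes were higher and 814 lower, and 96 and 153 met all 3 conditions. Site genes of both comparisons that were not called between the capsule groups numbered 1210 (66.4%) among the higher and 1728 (64.6%) among the lower. Lyve1 was at 1254, 1525, 965 and 1185 CPM in capsule macrophages, overlapping young RCAM, and the difference between the capsule groups was 0.35 ± 0.18 on the log2 scale (adjusted p = 0.203, edgeR). Folr2 differed by 0.24 ± 0.12, Cbr2 by 0.09 ± 0.11, Mmp9 by 0.20 ± 0.11 and Retnla by 0.13 ± 0.15, and each passed no test between the capsule groups. On the lower side Mmp13 was at 10.6, 5.81, 7.37 and 19.5 CPM, Mmp12 at 32.7, 27.4, 25.6 and 19.6 CPM and Cd72 at 87.1, 59.5, 68.4 and 79.5 CPM in capsule macrophages, all within or near the young RCAM range.

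**Figure D5:**
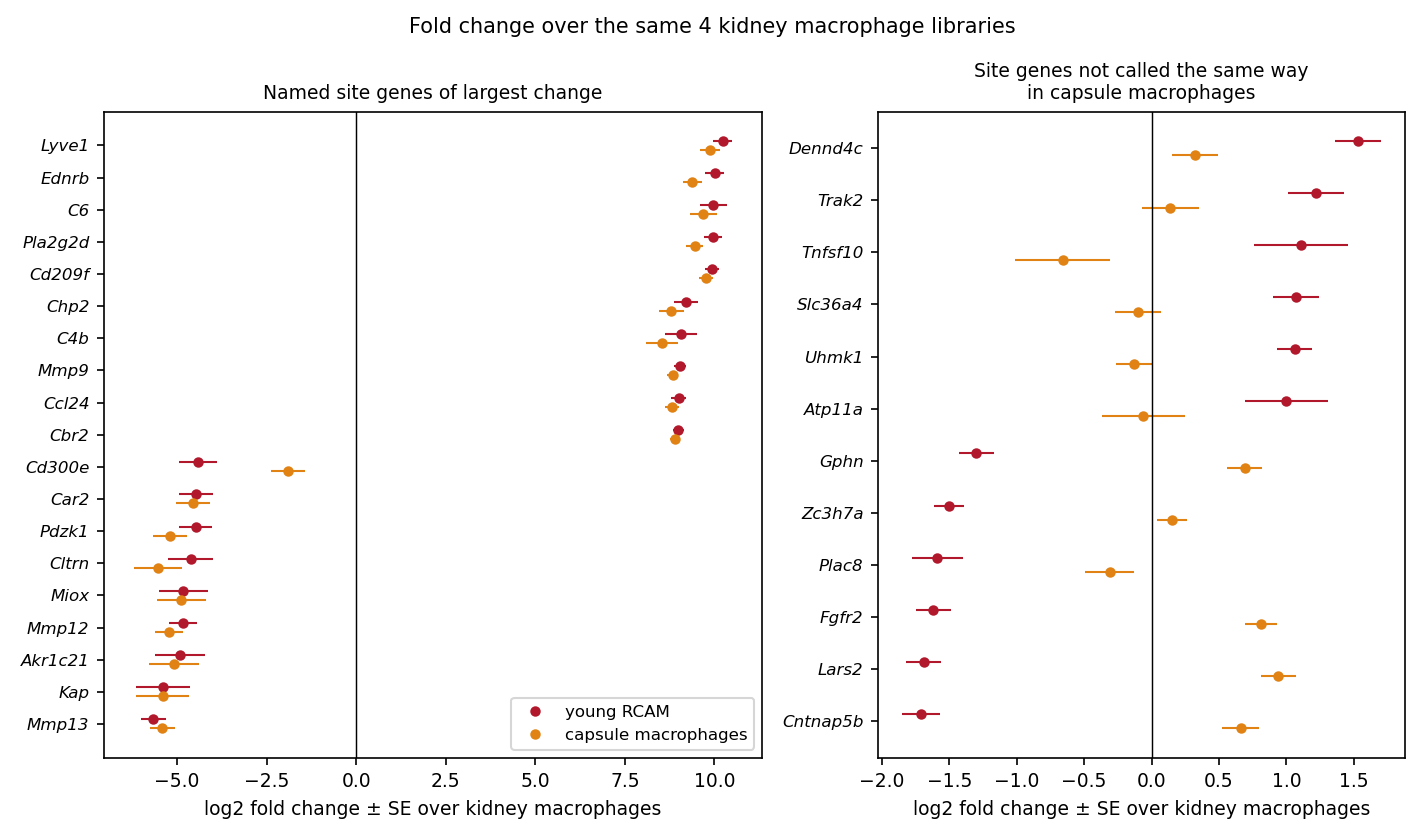
Log2 fold change with its SE over the same 4 kidney macrophage libraries for young RCAM (red) and capsule macrophages (orange). On the left 19 site genes of largest change point the same way in both groups, with Cd300e the most unequal pair (-4.40 and -1.91), and on the right 12 site genes of young RCAM are near 0 or opposite in capsule macrophages.

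A smaller set of site genes was unequal in the 2 capsule groups. Several were highest in young RCAM, lower in capsule macrophages and lowest in the kidney. Abca1 was at 186, 333, 272 and 267 CPM in capsule macrophages, between the other groups, and was higher in young RCAM by 1.47 ± 0.17 (adjusted p = 0.000185, edgeR). Slc40a1 was at 406 ± 34.5 CPM there and differed by 1.01 ± 0.10. Mrc1 differed by 0.89 ± 0.12, Mertk by 0.80 ± 0.10, Cd163 by 0.73 ± 0.11 and Fn1 by 1.17 ± 0.20. Other genes were graded the opposite way, lowest in young RCAM and highest in the kidney. Il1b was at 42.2, 47.6, 52 and 52.8 CPM in capsule macrophages, above every young RCAM library and below every kidney library. H2-Ab1 differed by -0.46 ± 0.11.

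The monocyte list was divided. Of its 20 genes, 7 were higher in young RCAM than in the kidney, each of them a site gene, and 10 were lower. The shares of all genes were 27.1% higher and 28.2% lower. Against capsule macrophages 2 were higher and 7 lower, where 8.98% of all genes were higher and 6.78% lower. The summed list was higher in young RCAM, at 3056 to 5125 CPM against 2047 to 2302 CPM in the kidney, and Fn1 made up much of it. Treml4, Spn and Nr4a1, known from patrolling monocytes, were among the 10 lower members. With Fn1 they were the 4 members of smallest p, and so do not stand for the whole list. Nr4a1 is also on the list of immediate early genes. Treml4 was at 19.6, 8.63, 11.3 and 10.5 CPM in young RCAM, at 44.4, 48.4, 59 and 38 CPM in capsule macrophages and at 92.9, 131, 93.4 and 147 CPM in the kidney. The 3 groups did not overlap. Cd300e, an activating receptor of monocytes that is not on the list, was at 6.24, 2.78, 2.55 and 0.399 CPM, at 12, 21, 21.5 and 12.7 CPM and at 53.7, 72, 50.5 and 76.5 CPM. Its log2 fold change over the kidney was -4.40 ± 0.53 in young RCAM, and -5.04 without young RCAM replicate 1. Spn, which encodes CD43, was at 15.2 ± 2.35, 27 ± 4.49 and 120 ± 8.52 CPM in the same order, and Nr4a1 at 38 ± 8.99, 94.7 ± 20.1 and 338 ± 83.8 CPM.

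Beside the 107 higher and 444 lower site genes not called in capsule macrophages, a narrower set was counted that adds a difference between the capsule groups. There were 20 higher and 93 lower site genes that differed at least 2-fold between the capsule groups and were not called the same way in capsule against kidney macrophages. The higher ones had modest changes. Dennd4c, a regulator of vesicle traffic, was at 93.4, 101, 76.9 and 73.9 CPM in young RCAM, 26.8, 46.4, 38.3 and 38.2 CPM in capsule macrophages and 33.8, 25.1, 34.6 and 26.5 CPM in the kidney. Capsule macrophages and kidney thus lay together, and young RCAM alone was apart. Uhmk1, Slc36a4 and Trak2 had log2 fold changes of 1.06 ± 0.13, 1.07 ± 0.17 and 1.22 ± 0.21 over the kidney, and of -0.13 ± 0.13, -0.10 ± 0.17 and 0.14 ± 0.21 in capsule macrophages. Atp11a, a lipid flippase, was at 32.1 ± 3.49 CPM in young RCAM, 15.3 ± 6.78 CPM in capsule macrophages and 16 ± 6.11 CPM in the kidney. Tnfsf10, which encodes the death ligand TRAIL, was at 37.4, 14.8, 25 and 22.4 CPM against 9.76, 9.21, 13.5 and 13.7 CPM. Its log2 fold change of 1.11 ± 0.35 fell to 0.85 without young RCAM replicate 1 and then missed the threshold (adjusted p = 0.0561, edgeR).

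Among the lower site genes, 8 were called in the opposite direction in capsule macrophages. They were Lars2, Fgfr2, Cntnap5b, Gphn and 4 transcripts without a descriptive name. Lars2 (chr9:123366927-123462666, plus strand), the mitochondrial leucyl-tRNA synthetase, was at 155, 205, 178 and 186 CPM in young RCAM, 1319, 1002, 964 and 1214 CPM in capsule macrophages and 578, 517, 535 and 707 CPM in the kidney. The 3 groups did not overlap and the capsule groups lay on opposite sides of the kidney. Fgfr2, a fibroblast growth factor receptor, was at 103 ± 8.1, 557 ± 114 and 317 ± 22.7 CPM. Cntnap5b, a neural adhesion gene, was at 25.6 ± 5.24, 133 ± 19.7 and 83.8 ± 6.7 CPM, and Gphn, gephyrin, at 77.3 ± 8, 306 ± 56.1 and 190 ± 21.1 CPM. Zc3h7a and Plac8 were lower in young RCAM than in both other groups, by -1.65 ± 0.11 and -1.27 ± 0.18 against capsule macrophages. The sequencing set differs between the capsule groups as well, and the library kit of each sample is not named. The part of either in these genes was not tested and cannot be told apart from the group.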

How the data were processed

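Bulk RNA was sequenced from 22 mouse libraries, of which 12 in 3 groups of 4 entered the fit. The values deposited by the authors are raw counts, whole numbers for each gene and library without normalization. The build is GRCm38 per the submitters' processing notes. Per the labels' protocols, libraries came from a stranded kit or a low-input kit, and the kit of each sample is not named. Aligner, counter and strand setting were not given in the sources used here. Reads of overlapping genes on opposite strands therefore cannot be told apart. Symbols and coordinates came from GENCODE M21 (GRCm38), in which 52489 of 52636 identifiers were found. No row was without a gene and no files were identical.

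Counts were fitted with edgeR 4.0.16 in R 4.3.3 (TMM, default expression filter, quasi-likelihood F test, 2-sided, Benjamini-Hochberg over all genes tested) in 1 fit that gave the 3 comparisons. The SE of a log2 fold change is its absolute value divided by the square root of the F statistic from this fit of all groups. It is thus not the spread of the libraries compared alone. Gene levels are TMM-scaled CPM, and list sums are CPM of the unscaled total. The script was tested on simulated data. The members and the 59 gene lists were chosen with earlier results of these data known. Named genes were protein-coding and had a mean log2 CPM of 3 or more. They were the 10 and 10 largest site genes, the 10 and 10 largest shared with capsule macrophages, the 6 and 6 largest that depended on the capsule group, up to 4 members of smallest p in each list, and 20 marker genes. Those list members and markers are named whatever their level. Fxyd2, Ogn and the genes listed at 0 were named after their values were seen. Alternatives were DESeq2 1.42.0, limma-voom (limma 3.58.1), other scalings and filters, the 2 groups alone, a replicate block, and leaving out each library. Aged RCAM and capsule tissue libraries were left out of the tests. Some named genes are not reported here.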

Additional observations from a re-analysis of the deposited data

Results flagged for a closer look

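Sample values were examined for 111 named genes in 3 groups of 4 libraries, 333 sets in all. In 18 of them 1 library stood apart from the other 3 by more than the 95% limit of Dixon's test, and chance alone would give about 1 in 20, or 17. Tubule genes were among them: capsule macrophage replicate 1 was high for Kap (34.8 CPM, others up to 5.86), Akr1c21 (11 CPM), Miox (31.8 CPM) and Slc34a1 (38.1 CPM), and young RCAM replicate 2 was high for Miox (25.4 CPM). The same RCAM library was high for Itgax (106.5 CPM, others up to 58.2) and Plin2 (678 CPM). Capsule macrophage replicate 2 was high for Timd4 (424.0 CPM), Cd209g (389 CPM) and Ctsl (449 CPM), replicate 3 for Hmgcs1 (20.8 CPM) and replicate 4 for Adgre1 (1809 CPM), Blvrb (362 CPM) and Adipoq (6.53 CPM). In the kidney, replicate 2 was high for Csf1r (4394 CPM), replicate 1 for Fcrls (17.7 CPM) and replicate 4 for Zc3h7a (403 CPM), and replicate 4 was low for Ddx3y (81.7 CPM).

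Differences from the kidney that were unequal in the 2 capsule groups were found for 19 named genes. Each met all 3 conditions between the capsule groups: edgeR's quasi-likelihood test, at least 2-fold and no overlap. As log2 fold changes of young RCAM over capsule macrophages, they were higher for Tnfsf10 (1.77), Abca1 (1.47), Dennd4c (1.21), Uhmk1 (1.19), Fn1 and Slc36a4 (1.17 each), Trak2 and Atp11a (1.07 each) and Slc40a1 (1.01). They were lower for Lars2 (-2.63), Cd300e (-2.49), Fgfr2 (-2.43), Cntnap5b (-2.37), Gphn (-1.98), Treml4 (-1.92), Zc3h7a (-1.65), Nr4a1 (-1.32), Plac8 (-1.27) and Runx3 (-1.05).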

How the results depend on the processing

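Every count of genes or site genes in the 3 comparisons stayed within 1.5 times its value under each alternative, except 1. Site genes higher in young RCAM than in capsule macrophages numbered 123, and 105 to 191 when 1 library was left out, with 191 without capsule macrophage replicate 2. Over all alternatives the site genes against kidney macrophages ranged from 1447 to 1867 higher and from 2269 to 3343 lower, and those also found in capsule macrophages from 1142 to 1442 and from 1746 to 2406. With library totals alone, 34.1% of the genes that passed were higher, against 49%. For 111 named genes under 21 alternatives, 2329 of 2331 values kept their direction and their side of the threshold, and none changed direction. The exceptions were Tnfsf10 without young RCAM replicate 1 (0.85) and Atp11a with library totals alone (0.76). By limma-voom Umod was -7.23 on the log2 scale, against -4.52.

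Replicate numbers are shared between groups, and no label says whether they pair the samples. Deviations of same-numbered young RCAM and kidney libraries correlated at -0.041 to -0.006. Those of same-numbered capsule macrophage and kidney libraries correlated at -0.05 to 0.034. Such values cannot exclude a shared animal. With the replicate block 4209 genes were higher and 4446 lower, 1798 and 2621 were site genes, and 1384 and 1954 of these were found in capsule macrophages. Depth limits low genes: 1 CPM is about 32 to 54 reads, so ratios against kidney levels under 1 CPM rest on few reads.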

Other observations

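Receptors for microbes and antibodies were divided between the sites. Of 24 tested Toll-like receptor genes 10 were higher in young RCAM than in kidney macrophages and 11 lower. The shares of all genes were 27.1% higher and 28.2% lower. Tlr5, the flagellin receptor, was at 109, 98.5, 121 and 134 CPM in young RCAM against 6.04, 3.32, 4.62 and 2.89 CPM in the kidney. Tlr8, which binds RNA, rose by 2.34 ± 0.13 on the log2 scale. Tlr12, which binds profilin of parasites, was at 7.72 ± 1.5 against 58.2 ± 10.7 CPM. Fcgrt, the neonatal Fc receptor that recycles antibody and albumin, was at 1701 ± 225 against 238 ± 26.5 CPM, and Fcgr4, an activating receptor for IgG, at 58.4 ± 14.8 against 372 ± 73.6 CPM. The sialic acid receptors Siglec1 and Siglece also went opposite ways. Siglec1 was at 498, 417, 532 and 536 CPM against 34, 42.7, 35 and 38.1 CPM, and Siglece at 94.7 ± 17.8 against 309 ± 11.9 CPM. In capsule macrophages Tlr5 was at 78.3 ± 15.1, Fcgrt at 1595 ± 180, Fcgr4 at 63.5 ± 11.8, Siglec1 at 322 ± 48.7 and Siglece at 123 ± 16.7 CPM.

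Across all genes tested 27.1% were higher and 28.2% lower in young RCAM than in the kidney. Genes induced by interferons were higher for 15 of 35 tested and lower for 8, a balance that turned with library totals alone, to 10 higher and 12 lower. On a list of interferon-inducible GTPases that also holds Irf1, Cxcl9, Cxcl10 and Ido1, 7 of 10 tested genes were higher and none lower. With library totals alone 6 of the 10 were higher. Ribosomal protein genes were lower for 25 of 43 and higher for 2, and 9 of 10 mitochondrially encoded genes were lower. Heat shock genes were lower for 8 of 16 and higher for 3. Immediate early genes, at 8 higher and 6 lower of 26, were near the shares of all genes. Against capsule macrophages 9 of the 26 were lower and none higher, where 6.78% of all genes were lower and 8.98% higher.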
